A study of Mus musculus with 8 samples.

Results

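The endothelial and angiogenic genes described here are 36 genes taken from a fixed list of names, out of 25050 genes measured: 14 endothelial surface and junction genes, 9 receptors and co-receptors, 5 transcription factors, 2 lymphatic genes and 6 ligands. Each of the 36 was found under its own symbol and had 1 probe set, and none was left out for a low value. RNA was measured on 8 whole-transcript arrays of mammary epithelial cells from female FVB mice labelled WT, in their first pregnancy or lactation. The 4 pregnancy arrays were of day 14 of pregnancy, the stage of secretory differentiation, and the 4 lactation arrays were of day 4 after birth, the stage of secretory activation. At both stages adipocytes had been depleted by enzymatic digestion of the gland, and the labels name no step that removes blood vessels. The labels do not say whether the arrays came from separate mothers or from pooled animals, so the p-values speak only of how these arrays varied, and that variation may be technical.

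Endothelial cells line blood vessels and hold together through junction proteins such as VE-cadherin, the product of Cdh5. Vascular endothelial growth factors act on the receptor tyrosine kinases Kdr, Flt1 and Flt4, with neuropilins as co-receptors, and angiopoietins act on the receptor Tek, with Tie1 as its partner. In the mammary gland the capillary bed around the alveoli expands during pregnancy and supplies the secretory epithelium in lactation.

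The labelled cell type was read from 3 epithelial genes. The mean log2 signal of Epcam, an epithelial adhesion molecule, was 9.89 in lactation and 10.00 in pregnancy, and that of the milk protein gene Csn2 was 12.72 and 12.36. The luminal keratin gene Krt18 was lower in lactation, at 9.04 against 10.07, a difference of -1.03 (adjusted p = 0.000613 in limma). Epithelial genes did not all stay level. Of 12 luminal markers, Krt18 and Epcam among them, 3 were called higher and 6 lower (9.73% and 16.1% of all genes), with differences of -3.53 to 1.19. The endothelial genes were measured in the same RNA. Correlation coefficients across all genes were 0.9865 or more for arrays of the same stage and 0.9777 or less for arrays of different stages. All values below are the deposited log2 signals, and a difference is lactation minus pregnancy. A gene was called where limma's p, adjusted over all 25050 genes, was under 0.05.

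Proximal promoters are shown for 3 members whose position relative to other endothelial genes is described below, the VEGF receptors Flt1 and Kdr and the sialomucin Cd34. The windows run from 250 bases before to 50 after the RefSeq start (GRCm38.p6), 5′ to 3′ on the gene's strand. Capitals mark AGGAAG or its reverse complement CTTCCT, a core sequence bound by ETS factors, the family of Erg and Fli1. The Flt1 window lies at chr5:147725962-147726261 on the minus strand and holds 2 matches, the Cd34 window at chr1:194938571-194938870 on the plus strand holds 1, and the Kdr window at chr5:75978406-75978705 on the minus strand holds 0.
Flt1: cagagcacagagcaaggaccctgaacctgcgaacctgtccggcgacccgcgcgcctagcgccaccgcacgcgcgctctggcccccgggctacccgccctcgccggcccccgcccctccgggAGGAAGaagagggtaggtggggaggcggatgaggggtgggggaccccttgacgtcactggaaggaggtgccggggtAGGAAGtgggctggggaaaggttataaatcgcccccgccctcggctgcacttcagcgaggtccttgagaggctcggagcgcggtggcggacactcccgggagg
Cd34: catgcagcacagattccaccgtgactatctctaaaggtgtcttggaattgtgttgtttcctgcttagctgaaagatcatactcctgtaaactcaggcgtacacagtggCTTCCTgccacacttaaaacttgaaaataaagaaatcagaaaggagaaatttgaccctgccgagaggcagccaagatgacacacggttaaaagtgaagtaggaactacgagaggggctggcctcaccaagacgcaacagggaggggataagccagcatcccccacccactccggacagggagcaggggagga
Kdr: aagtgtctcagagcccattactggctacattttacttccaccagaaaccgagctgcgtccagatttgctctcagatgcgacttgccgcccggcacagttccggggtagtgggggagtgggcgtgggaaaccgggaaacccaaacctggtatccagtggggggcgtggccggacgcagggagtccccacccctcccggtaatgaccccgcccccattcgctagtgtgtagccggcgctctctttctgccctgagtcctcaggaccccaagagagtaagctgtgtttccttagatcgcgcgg

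RefSeq windows were at hand for 20 of the 36 genes, 27 windows in all, and the other 16 genes had no entry. Of 5 motifs searched on both strands, AGGAAG was in 11 of the 27 windows (40.7%) and in 35.4% of all 32851 windows. The longer CAGGAAG, which contains it, was in 7 (25.9%, against 13.3%), and the shorter GGAA was in 26 (96.3%, against 96.0%). ACGTG, the core of the hypoxia response element, was in 1 window, of Vegfa (3.7%, against 19.6%), and CACGTG, which contains it, was in 0 (against 7.15%). These motifs were chosen after array values had been seen, and a match is a description of the letters only.

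Most endothelial genes did not differ between day 14 of pregnancy and day 4 of lactation beyond the spread of the arrays, while the growth factor genes Angpt1 and Vegfa rose and the surface gene Ecscr fell. In limma 3 of the 36 members were called (8.33%), against 25.8% of all genes. Of these 2 were higher, against 9.73% of all genes, and 1 was lower, against 16.1%. The remaining 33 did not pass the threshold, and 6 members had an unadjusted p under 0.05. The median difference was -0.03 over the members and 0.01 over all genes. Stages did not overlap for 2 members, Vegfa and Angpt1, against 29.6% of all genes. Among all called genes 62.3% were lower in lactation, and this share was 53.2% after quantile normalization and 47.1% with arrays centred on their median. A miss does not show that a gene stayed level: the 95% intervals had a median half-width of 0.60 log2 units for the members and 0.21 for all genes.

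The ligands held both rises. Angpt1 encodes angiopoietin 1, the agonist of Tek that is known for stabilising vessels. Its signals were 8.66, 9.37, 8.08 and 8.83 on the lactation arrays and 6.57, 6.43, 7.05 and 7.67 on the pregnancy arrays. All lactation arrays lay above all pregnancy arrays. Angpt1 was 3.49-fold higher, with means of 8.73 ± 0.53 and 6.93 ± 0.56 (SD, n = 4 each), a log2 difference of 1.80 (SE 0.31) and an adjusted p of 0.00235 in limma.

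Vegfa encodes the main growth factor for endothelial cells. Its signals were 8.74, 9.11, 9.44 and 9.06 in lactation and 8.36, 8.41, 8.56 and 8.57 in pregnancy. The stages did not overlap, and the pregnancy arrays were close to each other. Vegfa was 1.53-fold higher in lactation, with means of 9.09 ± 0.29 and 8.47 ± 0.11 (SD, n = 4 each), a log2 difference of 0.61 (SE 0.13) and an adjusted p of 0.00826 in limma.

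The other ligands were not called. Angpt2, whose product can oppose angiopoietin 1 at Tek, differed by 0.17 (95% interval -0.46 to 0.81, adjusted p = 0.682 in limma), and its lactation arrays ran from 5.01 to 6.05 against 4.85 to 5.94. Vegfb differed by -0.11 (-0.34 to 0.11) and Vegfc, the ligand of Flt4 in lymphatic growth, by -0.03 (-0.31 to 0.24), with Vegfc signals of only 4.46 to 5.02 on the 8 arrays. Apln, the ligand of the receptor Aplnr, was at 8.64 to 9.29 in lactation and 8.82 to 9.59 in pregnancy, a difference of -0.35 (-0.77 to 0.08, adjusted p = 0.203), and was called lower with the replicate number as a block (adjusted p = 0.0474). The mean of the 6 ligands was 7.31, 7.39, 7.33 and 7.43 on the lactation arrays and 6.88, 7.03, 7.15 and 7.01 on the pregnancy arrays. The ligand mean was therefore higher on every lactation array, with Angpt1 and Vegfa as its called members. The group did not rise as a whole: 3 differences were above 0 and 3 below, with a median of 0.07.

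**Figure D1:**
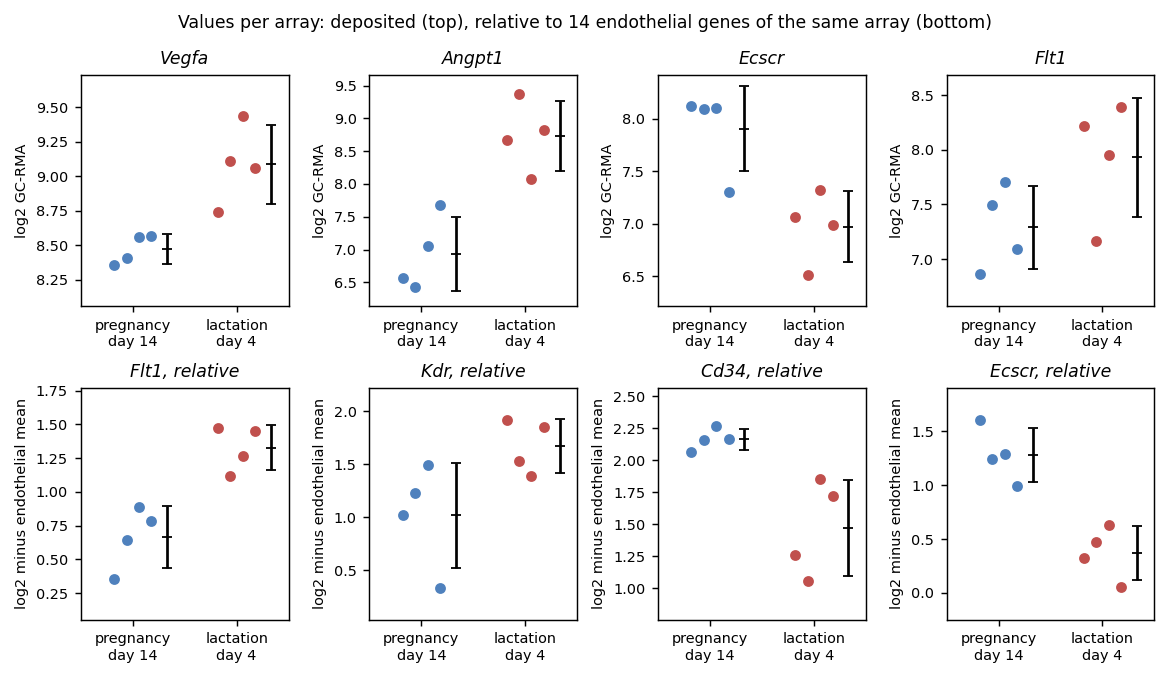
Log2 signal per array (points) with stage mean and SD (bars, n = 4) for Vegfa, Angpt1, Ecscr and Flt1 as deposited (top), and log2 signal of Flt1, Kdr, Cd34 and Ecscr minus the mean of 14 endothelial genes outside the list (bottom). Vegfa and Angpt1 do not overlap between the stages as deposited. After the subtraction Flt1, Cd34 and Ecscr do not overlap, while Kdr does, and so does Vegfa (not shown). The share of all genes without overlap after the subtraction was not counted.

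Among the 14 surface and junction genes 1 fell and 13 were not called. Ecscr encodes an endothelial cell surface protein that regulates chemotaxis. Its signals were 7.07, 6.52, 7.32 and 6.99 in lactation and 8.12, 8.10, 8.10 and 7.30 in pregnancy. The lowest pregnancy array lay just below the highest lactation array, so the stages overlapped there. Ecscr was 1.91-fold lower in lactation, with means of 6.97 ± 0.34 and 7.91 ± 0.40 (SD, n = 4 each), a difference of -0.93 (SE 0.22) and an adjusted p of 0.0111 in limma.

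Defining endothelial genes were not called. Pecam1, the adhesion molecule of endothelial junctions, was at 8.76, 7.70, 8.68 and 9.22 in lactation and 8.40, 8.91, 8.94 and 8.18 in pregnancy, a difference of -0.02 (95% interval -0.67 to 0.64, adjusted p = 0.969 in limma). Cdh5 was at 9.92, 8.69, 9.81 and 10.22 against 9.43, 9.77, 10.02 and 8.95, a difference of 0.12 (-0.59 to 0.83, adjusted p = 0.805). In both genes lactation array 2 was the lowest of its stage and pregnancy array 4 the lowest of its own. Cd34, a sialomucin of capillary endothelium and of some stromal progenitors, was at 8.002, 7.10, 8.54 and 8.65 in lactation and 8.58, 9.01, 9.08 and 8.48 in pregnancy. Its difference of -0.71 (-1.40 to -0.03) had an adjusted p of 0.112 in limma. Ptprb, the vascular phosphatase that restrains Tek signalling, was at 8.85, 7.66, 8.94 and 9.33 against 7.84, 8.37, 8.51 and 8.19, a difference of 0.47 (-0.22 to 1.16, adjusted p = 0.283). Without lactation array 2 Ptprb was called, at 0.81 (adjusted p = 0.0108).

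The other surface genes differed by -0.50 to 0.02. The low end was Vwf, the clotting factor carrier stored in endothelial granules (-0.50, adjusted p = 0.229 in limma), Cldn5, the endothelial tight junction claudin (-0.47, 0.294), and Plvap, a component of the diaphragms of fenestrated capillaries (-0.40, 0.264). Near 0 lay the guidance receptor Robo4 (0.02), the matrix protein gene Mmrn2 (-0.03) and the secreted factor gene Egfl7 (-0.09). Emcn, a sialomucin of veins and capillaries, differed by -0.24, the adhesion molecules Icam2 and Esam by -0.22 and -0.16.

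None of the 9 receptors and co-receptors was called, and 2 had an unadjusted p under 0.05, Flt1 and Nrp2. Flt1, a high-affinity receptor that also limits the VEGF-A reaching Kdr, was at 8.22, 7.16, 7.95 and 8.39 in lactation and 6.87, 7.49, 7.71 and 7.10 in pregnancy. Only lactation array 2 fell within the pregnancy range. The Flt1 difference was 0.64 (95% interval 0.05 to 1.23), with an adjusted p of 0.103 in limma, and without that array it was 0.90 and called (adjusted p = 0.0134). Kdr, the main signalling receptor for VEGF-A, was at 8.67, 7.57, 8.08 and 8.78 in lactation and 7.53, 8.08, 8.31 and 6.65 in pregnancy, a difference of 0.63 (-0.18 to 1.45, adjusted p = 0.225). The Kdr stages overlapped, with the lowest value on pregnancy array 4.

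Flt4, the receptor of VEGF-C, differed by 0.39 (adjusted p = 0.184 in limma) at low signals of 5.05 to 6.15. The neuropilins lay on opposite sides of 0, Nrp1 at 0.20 (adjusted p = 0.650) and Nrp2 at -0.63 (95% interval -1.25 to -0.00, adjusted p = 0.126). Nrp2, which binds VEGF-C and semaphorins, was at 6.47, 5.68, 7.00 and 7.14 in lactation and 7.17, 7.30, 7.44 and 6.89 in pregnancy. The angiopoietin receptor Tek differed by 0.15 and Tie1 by -0.12, the TGF-beta co-receptor Eng by 0.18 and the apelin receptor Aplnr by -0.27, each with an interval that included 0. The rise of Angpt1 was thus measured beside a Tek difference whose interval ran from -0.53 to 0.84.

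The 5 transcription factors and the 2 lymphatic genes were not called. The ETS factors Erg and Fli1 differed by 0.05 and -0.21, and Sox17 and Sox18, factors of arterial and lymphatic specification, by 0.21 and -0.24. Tal1, a factor of blood and endothelial progenitors, differed by 0.22 (adjusted p = 0.136 in limma) and was called after quantile normalization (0.32, adjusted p = 0.0441). Lyve1, the hyaluronan receptor of lymphatic vessels and of some macrophages, differed by -0.48 (adjusted p = 0.172), and Prox1, the factor that specifies lymphatic endothelium, by 0.33 (adjusted p = 0.231). Their signals were low, 5.32 to 6.73 for Lyve1 and 4.92 to 5.96 for Prox1.

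**Figure D2:**
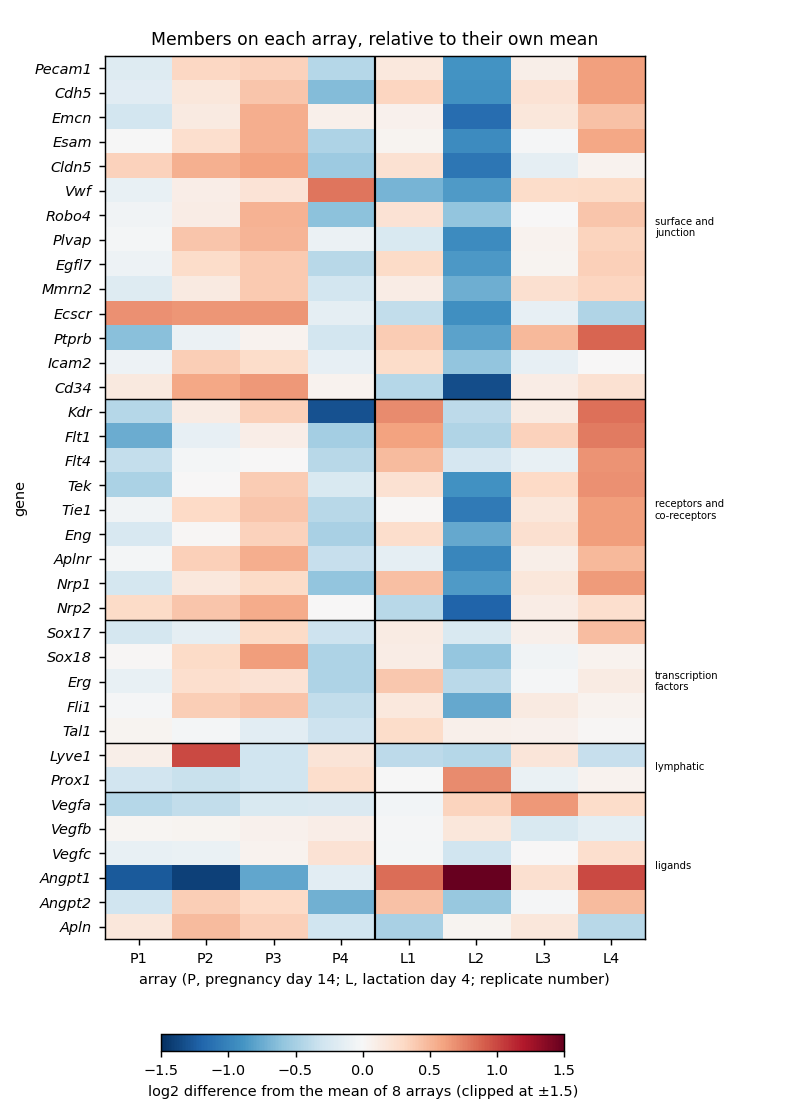
Log2 signal of each of the 36 genes on each of the 8 arrays, shown as the deviation from the gene's mean over all arrays and grouped by role (colours are clipped at the ends of the scale). Lactation array 2 is low for most surface, receptor and transcription factor genes. Angpt1, Prox1 and Vegfb are the highest of their stage there, and Vegfa (9.11) is close to its lactation mean (9.09).

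The endothelial genes moved together from array to array within a stage. Lactation array 2 was the lowest of its stage for 30 of the 36 members and for all 23 surface and receptor genes, against 21.8% of all genes. Members not lowest there were Tal1, Prox1, Vegfa, Vegfb, Angpt1 and Apln. Pregnancy array 4 was the lowest of its stage for 25 of 36 members and 18 of the 23, against 22.8% of all genes. Lactation array 4 and pregnancy array 3 were each the highest of their stage for 23 members.

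The list means show the same pattern. Over all 36 genes the mean was 7.39, 6.72, 7.38 and 7.61 on the lactation arrays and 7.13, 7.43, 7.55 and 7.00 on the pregnancy arrays. The stage means were 7.28 ± 0.38 and 7.28 ± 0.26 (SD, n = 4 each), a difference of 0.00, and leaving out 1 array at a time gave -0.11 to 0.18. The surface genes had means of 7.83, 6.91, 7.90 and 8.14 against 7.76, 8.09, 8.25 and 7.59, a difference of -0.23. The receptors had 7.54, 6.53, 7.46 and 7.92 against 7.04, 7.43, 7.63 and 6.82, a difference of 0.13. For both lists the stages overlapped, and the range within lactation was wider than the difference between stages. In bulk RNA, fewer endothelial cells and less endothelial RNA per cell cannot be told apart.

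**Figure D3:**
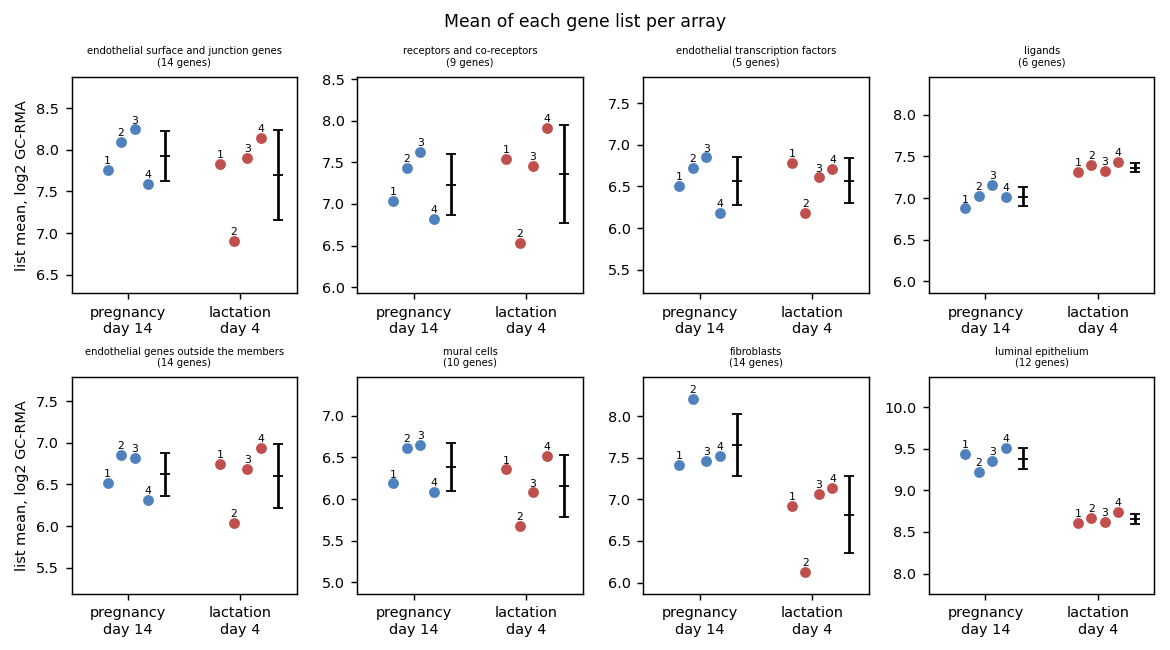
Mean log2 signal per array (points, numbered by replicate) with stage mean and SD (bars, n = 4) for 4 role groups, the 14 endothelial genes outside the list, and mural, fibroblast and luminal markers. Surface genes, receptors and the endothelial genes outside the list are low on lactation array 2 and pregnancy array 4. The ligand mean is higher on all 4 lactation arrays, with 3 of the 6 ligands above 0 in their stage difference and 3 below.

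Markers of 8 other cell types were read beside this pattern, and low means on these arrays were not limited to vascular genes. Lactation array 2 had the lowest mean of its stage for 5 of the 8 marker lists, those of mural cells, fibroblasts, macrophages, red blood cells and myoepithelium. Pregnancy array 4 had the lowest for 3 of the 8, those of mural cells, T cells and adipocytes. Pregnancy arrays 1, 2 and 3 had it for 2, 2 and 1 lists, so array 4 stood out little here. The mean of 10 mural cell genes, which mark the pericytes and smooth muscle around vessels, was 6.36, 5.68, 6.08 and 6.52 in lactation and 6.19, 6.62, 6.65 and 6.09 in pregnancy, and 0 of the 10 were called while 1 had an unadjusted p under 0.05 in limma. Of all genes 9.73% were called higher and 16.1% lower with all 8 arrays, the shares to set beside the count of each list. The fibroblast mean was 6.13 to 7.13 in lactation and 7.41 to 8.20 in pregnancy, and 9 of 14 genes were lower. That count was 2 to 7 with any 1 array left out (5 or fewer without lactation array 1 or 2 or pregnancy array 1, 2 or 3), 3 with the replicate block and 4 after quantile normalization. T cell markers were at 4.79 to 5.39 and 5.47 to 6.95, with 9 of 12 lower, a count that was 3 to 10 with 1 array left out (5 or fewer without lactation array 1, 2 or 4 or pregnancy array 1). Macrophage markers were at 5.87 to 7.03 and 6.93 to 7.38 (3 of 13 lower, and 6 without lactation array 3), and red blood cell genes at 7.36 to 7.77 and 7.80 to 8.39 (5 of 8 lower, and 3 without lactation array 2 or 3 or pregnancy array 2, 3 or 4). Adipocyte genes were at 6.78 to 7.74 and 6.06 to 7.26, with 2 of 12 higher, and 1 without lactation array 1 or pregnancy array 3 or 4. Luminal genes were at 8.61 to 8.74 and 9.22 to 9.51 (3 of 12 higher, 6 lower), and myoepithelial genes at 8.16 to 9.21 and 8.54 to 8.75 (1 of 10 in each direction, with 2 lower without lactation array 3 and 0 without pregnancy array 1 or 3). The part of these cells in the results for the endothelial genes was not tested.

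The stages were also compared at a given endothelial signal, by adding to the model the mean per array of 14 endothelial genes outside the list (among them Nos3, S1pr1, Cd93 and Clec14a), which differed between the stages by -0.02. This covariate was chosen after the data had been seen. Of its 14 genes 0 were called, with differences of -0.19 to 0.20. Whether its small stage difference comes from that choice was not tested. The median interval half-width of the members narrowed from 0.60 to 0.27 log2 units. With it 10 of the 36 members were called, a share close to that of all genes (26.5%). Of these 6 were higher (10.1% of all genes) and 4 lower (16.4%). With the mean of the 14 surface genes of the list as the covariate instead, 12 were called (22.8% of all genes), 10 higher (8.27%) and 2 lower (14.5%). That surface mean itself differed by -0.23. Both covariates called 8 genes, Flt1, Kdr, Flt4, Ptprb, Vegfa and Angpt1 higher and Ecscr and Cd34 lower. The share of all genes called with both was not counted, so the count of 8 is not read as a result about the members. Of the 8 genes, Flt1, Angpt1 and Ecscr kept their call under all 10 alternatives of both fits. How many of all genes did so was not counted either. The surface genes are themselves members, so the fit with them is not independent support.

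Flt1 stood higher in lactation relative to the 14 endothelial genes outside the list. Its signal minus the mean of the 14 outside genes was 1.47, 1.12, 1.27 and 1.45 in lactation and 0.35, 0.64, 0.89 and 0.78 in pregnancy. The stages no longer overlapped. Among the other members Angpt1, Ecscr, Cd34, Nrp2 and Plvap did not overlap after this subtraction, and the rest did. Vegfa gained an overlap, with lactation array 1 at 1.99 and pregnancy array 4 at 2.26 after the same subtraction. Vegfa and Angpt1 were not low on lactation array 2 with the endothelial genes. The subtraction widened their lactation SDs, from 0.29 to 0.51 and from 0.53 to 0.83, so this mean is a poor reference for both ligands. The share of all genes without overlap was not counted after the subtraction, and was 29.6% as deposited. With the outside covariate the Flt1 difference was 0.67 (SE 0.12, adjusted p = 0.00428 in limma). Kdr relative to the same mean was 1.92, 1.53, 1.39 and 1.85 against 1.02, 1.23, 1.49 and 0.33, still overlapping, with a difference of 0.67 (SE 0.19, adjusted p = 0.0271) that was called in 3 of 10 alternatives. Flt4 (0.41, adjusted p = 0.0435) and Ptprb (0.50, adjusted p = 0.0395) were called in 2 and 3 of 10.

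Cd34 and Ecscr stood lower in lactation relative to the same genes. Cd34 minus the outside mean was 1.26, 1.05, 1.85 and 1.72 in lactation and 2.06, 2.16, 2.26 and 2.16 in pregnancy. No lactation array reached the pregnancy range. The difference was -0.68 (SE 0.14, adjusted p = 0.00671 in limma), called in all 10 alternatives of this fit and in 9 of 10 with the surface genes. Ecscr was at 0.32, 0.47, 0.63 and 0.05 against 1.60, 1.25, 1.29 and 0.99, which removed the overlap seen in the deposited values, with a difference of -0.92 (SE 0.16, adjusted p = 0.00318). Nrp2 (-0.60, adjusted p = 0.0162, 8 of 10 alternatives) and Plvap (-0.37, adjusted p = 0.0316, 4 of 10) were called lower with the outside genes and not with the surface genes (adjusted p = 0.0526 and 0.182). Conversely Cdh5, Eng, Nrp1 and Tek were called higher with the surface genes only, with adjusted p-values of 0.165, 0.114, 0.070 and 0.370 for the outside genes.

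**Figure D4:**
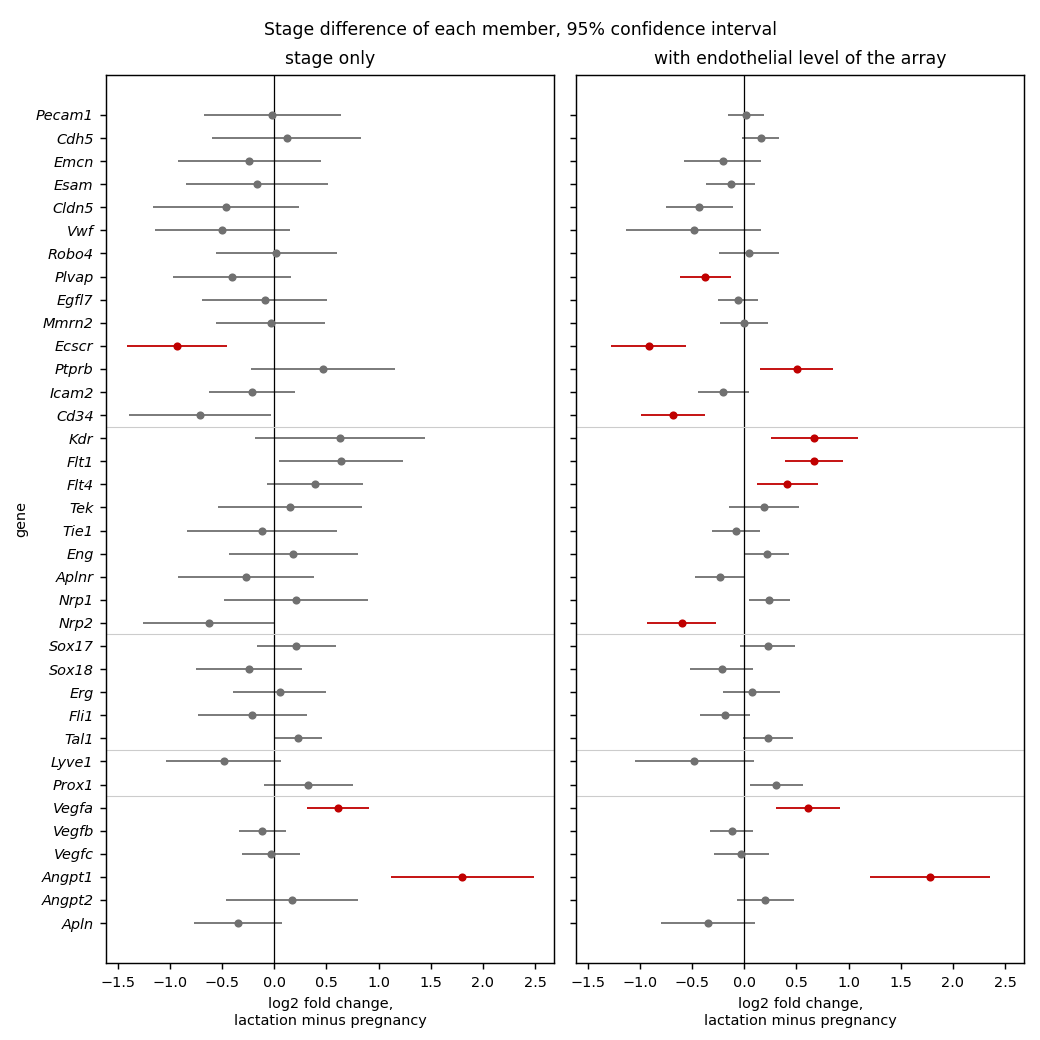
Log2 difference, lactation minus pregnancy, with 95% confidence intervals for the 36 genes, from the stage comparison alone (left) and with the mean of 14 endothelial genes outside the list as a covariate (right). Red marks called genes, 3 on the left (against 25.8% of all genes) and 10 on the right (against 26.5%), where the intervals are narrower.

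Leaving out lactation array 2 and pregnancy array 4 together, also chosen after the data had been seen, left 3 arrays a stage and 6 calls among the 36 members (16.7%), against 17.9% of all genes (6.55% higher and 11.4% lower). Angpt1 (1.84, adjusted p = 0.00113 in limma), Flt1 (0.83, 0.0307), Ptprb (0.80, 0.0238) and Vegfa (0.64, 0.0311) were higher, and Ecscr (-0.98, 0.000841) and Cldn5 (-0.44, 0.0399) were lower.

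Of 49 other vascular and angiogenic genes 3 were called higher and 6 lower (18.4%, against 25.8% of all genes), with a median difference of 0.01. The count of rises was 7 without lactation array 2, and 5 after quantile normalization or median centring. Tspan7, a tetraspanin, was at 9.82, 10.20, 9.85 and 10.11 in lactation and 7.98, 8.24, 7.97 and 7.84 in pregnancy, a difference of 1.99 (SE 0.11, adjusted p = 4.46e-06 in limma). Thbs1, an inhibitor of angiogenesis also made by stroma and platelets, was at 6.50, 6.14, 7.05 and 6.82 against 9.12, 8.62, 9.31 and 8.89, a difference of -2.36 (SE 0.20, adjusted p = 4.71e-05). Neither gene overlapped between the stages. Angpt4, a further Tek ligand (0.36, adjusted p = 0.0194), and Lmo2, a partner of Tal1 (0.35, 0.00808), rose. The Angpt4 signals were low, 4.23 to 4.64 in lactation and 3.99 to 4.18 in pregnancy. The adhesion molecule Vcam1 (-1.39, 0.00135) and the lymphatic and stromal glycoprotein Pdpn (-1.05, 0.00138) fell. With the outside covariate 7 of the 49 were higher and 6 lower (10.1% and 16.4% of all genes). Nos3, S1pr1, Cd93 and Clec14a belong to the 49 and to that covariate, so this list is not independent of it. The added rises included the Notch receptor Notch4 (0.51, adjusted p = 0.00369, called in 10 of 10 alternatives), the arterial connexin Gja5 (0.47, 0.018, 7 of 10), the Notch ligand Dll4 (0.42, 0.0307, 5 of 10) and Rgcc (0.51, 0.0395, 4 of 10), 4 genes named after their values were seen.

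Vegfa is a target of hypoxia-inducible factors, so 20 genes of that pathway were read beside it. Of these 6 were higher and 3 lower (45.0%, against 25.8% of all genes), with a median difference of 0.13. Rises were largest in the kinase gene Pdk1 (1.10, adjusted p = 4.71e-05 in limma), the glucose transporter Slc2a1 (0.89, 0.0153) and the oxidase Ero1a (0.66, 0.0015). The called falls were Pfkfb3, a regulator of glycolysis (-0.90, 0.000382), Egln3, a HIF prolyl hydroxylase that HIF itself induces (-0.51, 0.00846), and Hif1an, an inhibitor of HIF (-0.31, 0.0433). Called genes of this list moved in both directions. Several serve epithelial metabolism as well as hypoxia, and a part of hypoxia in the Vegfa rise was not tested.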

How the data were processed

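The values the authors deposited are log2 signals per probe set and array, made with GCRMA and Partek per the submitters' processing notes; tool versions, settings, array annotation and build are not stated in the sources used. No further normalization was applied. Of 35556 probe sets 26836 carried a symbol, updated through RefSeq (GRCm38.p6, names and promoters only) to 25050 genes; for 975 genes with several probe sets the one with the highest mean was used. A second deposited table was identical.

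The stages were compared with limma 3.58.1 in R 4.3.3 (lmFit and eBayes with an intensity trend), with Benjamini-Hochberg adjustment over 25050 genes and a threshold of 0.05, and the procedure was tested on simulated data. All 36 members are named, and from the other vascular and the hypoxia lists up to 3 genes per direction with the largest called change; marker lists are given by means and counts, and further genes were named after their values were seen. Members and lists were chosen with earlier results of these data known. Covariate fits, in which a tested gene was left out of its own covariate, were added after the data were seen. Same-numbered arrays did not pair (correlations of their deviations 0.242, -0.164, 0.151 and 0.178). The number of arrays limits the precision. Ccl21a, Trac and Ahsp had no probe set under their symbols.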

Additional observations from a re-analysis of the deposited data

Results flagged for a closer look

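In 4 of 84 groups of 4 arrays tested, 1 array's gap to its nearest neighbour, as a share of the group's range, exceeded Dixon's 95% critical value. Chance flags about 1 in 20 groups. In pregnancy the share was 0.972 for Ecscr, whose array 4 was at 7.30 against 8.10 to 8.12, and 0.932 for Prox1, whose array 4 was at 5.52 against 4.92 to 4.96. In lactation it was 0.884 for Fli1, whose array 2 was at 6.52 against 7.35 to 7.46, and 0.866 for Lyve1, whose array 3 was at 5.93 against 5.32 to 5.41.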

How the results depend on the processing

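Under 15 other settings (variance model, scaling, dim-gene filter, probe set and symbol rules, replicate block, 1 array out) Angpt1, Vegfa and Ecscr kept their calls, at 1.59 to 2.05, 0.50 to 0.73 and -1.14 to -0.78, with adjusted p-values of 0.001 to 0.00985, 0.00192 to 0.0286 and 0.00173 to 0.0381. Of the 36 members 32 stayed on their side of the threshold; Flt1, Ptprb, Tal1 and Apln did not. In 15 members an uncalled difference changed sign under some alternative.

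With the replicate block, although the numbers do not pair the arrays (2 of 4 lactation arrays correlated best with their own number), 2 members were lower and 3 fibroblast genes were lower. Without lactation array 2 and pregnancy array 4 4 members were higher and 2 lower, 5 other vascular genes higher, and 5 fibroblast, 2 red blood cell, 1 adipocyte and 0 myoepithelial genes lower. With the surface covariate 10 members and 11 other vascular genes were higher and 2 members lower; with the outside covariate 6 and 7 were higher and 4 members lower. Centring on the median gave 3719 genes higher (2438 in the report) and 5 other vascular genes higher; quantile normalization gave 5 other vascular genes higher and 4 fibroblast genes lower. Without the dimmest 40% of genes 1 mural gene was lower. The cause of these shifts was not tested.

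Leaving out 1 array gave 2 to 4 members higher (4 without lactation array 2), 1537 to 2487 of all genes higher (lowest without pregnancy array 3) and 2 to 7 other vascular genes higher. Lower were 0 to 1 mural, 2 to 7 fibroblast, 2 to 6 macrophage, 3 to 10 T cell, 3 to 5 red blood cell, 0 to 1 adipocyte and 0 to 2 myoepithelial genes, and 1 to 2 adipocyte genes were higher. The 4 arrays a stage limit what can be called, most of all for members that varied between arrays.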
